A study of Mus musculus with 4 samples.

Results

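The basal layer keratins Krt5, Krt14 and Krt15 form the cytoskeleton of the proliferating cells at the base of the epidermis. They were found by gene symbol among probe sets that the platform annotation assigns to a single gene, and they are 3 of the 19938 genes with such a probe set on the arrays. Each of them had 1 such probe set, so no choice between probe sets was needed. Skin was taken from E16.5 mouse embryos (E, embryonic day) and its total RNA hybridised to 4 Affymetrix arrays, each carrying RNA of 2 mice. The 2 Ovol2 BT arrays were from embryos of the genotype TRE-Ovol2-Flag;K5-tTA, labelled as strain FVB/N and female. The 2 control arrays were from embryos that carried TRE-Ovol2-Flag alone or were wild type, labelled as strain CB6F1 and female, and the labels do not say which control array held which genotype. The strain label differs between the groups although the protocol speaks of littermates, so genotype and labelled strain cannot be told apart.

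K5-tTA is a tetracycline-controlled transactivator under a keratin 5 promoter, whose species of origin the labels do not give, and TRE is the promoter it switches on. The Flag-tagged Ovol2, a zinc finger transcription factor of epithelia, was therefore directed to cells that use keratin 5, chiefly basal keratinocytes. No array of embryos with K5-tTA alone was analysed here. The comparison addresses which transcripts differ in whole skin at an age before marked morphological change. The arrays measured bulk skin, in which fewer cells of a type and less RNA per cell cannot be told apart.

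Keratins are intermediate filament proteins that assemble only as pairs of a type I and a type II chain. In basal keratinocytes the type II keratin Krt5 pairs with the type I keratin Krt14, and Krt15 is a further type I partner of Krt5. When a cell leaves the basal layer it stops making these chains and switches to Krt1 and Krt10, the pair of the spinous layer. Krt15 is also known from stem cells of the adult hair follicle bulge.

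Ovol2 itself averaged 12.95 ± 0.02 on the Ovol2 BT arrays and 7.94 ± 0.50 on the control arrays (log2 level, SD, n = 2 arrays each), which matches the labels on every array. Levels here are log2(intensity + 16) of the deposited values. Of the skin markers listed, all 13 general epithelial genes and all 8 dermal fibroblast markers passed the filter on dim genes. So did 5 of 7 suprabasal keratins. The filter also kept 14953 of all 19938 genes and all 9 listed skeletal muscle markers, so passing it is weak evidence of presence. Over the genes tested, Pearson's r of Ovol2 BT replicate 2 with the other arrays was 0.924 to 0.935, below the 0.976 to 0.983 among the other 3 arrays. These correlations are across genes, which are not independent replicates. Folds and within-array differences of the basal keratins are therefore also given without that array. The labels do not say that the arrays of a group came from separate litters, so p-values measure only the spread between these arrays.

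All 3 basal keratins were lower in Ovol2 BT skin, Krt15 the most. The level in Ovol2 BT skin was 37.7% of that in control skin for Krt15, 54.8% for Krt5 and 63.3% for Krt14, as ratios on the log2(intensity + 16) scale. The 2 groups of arrays did not overlap for any of the 3 genes. In limma's moderated test over 14953 genes none of the 3 passed the threshold of an adjusted p under 0.05 (Benjamini-Hochberg), while all 3 had an unadjusted p under 0.05. Of all genes tested, 0.0268% passed the adjusted threshold in either direction. An unadjusted p under 0.05 with a lower level in Ovol2 BT skin was found for 1.74% of genes. For 14.1% of genes the groups did not overlap and Ovol2 BT was lower. With 2 arrays a group an exact permutation test cannot give a p below 0.333, so none was used for single genes.

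Krt5, the basal type II keratin (mouse chromosome 15), had intensities of 7523 and 7928 on Ovol2 BT arrays 1 and 2, against 14222 and 13988 on control arrays 1 and 2. Both Ovol2 BT values lay far under both control values, and arrays of the same genotype differed little. Its log2 level was 12.92 ± 0.05 in Ovol2 BT skin and 13.79 ± 0.02 in control skin (SD, n = 2 each). The log2 fold of Ovol2 BT over control was -0.87 (SE 0.06, 95% interval -1.03 to -0.71, limma adjusted p = 0.0597). Without Ovol2 BT replicate 2 the fold was -0.91 (limma adjusted p = 0.000692), and without Ovol2 BT replicate 1 it was -0.83 (limma adjusted p = 0.00023). In these fits the spread comes from the control pair alone, the remaining Ovol2 BT array is taken to vary as much, and 107 and 2453 genes passed in all. Krt5 did not pass without control replicate 1 (-0.86, limma adjusted p = 0.0685) or without control replicate 2 (-0.88, limma adjusted p = 0.134). It passed with quantile normalisation (limma adjusted p = 0.0474) and with a filter at the 50th percentile (limma adjusted p = 0.0291). It did not with median centring (limma adjusted p = 0.14), all probe sets (limma adjusted p = 0.184) or a variance without trend (limma adjusted p = 0.591).

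Krt14, the main type I partner of Krt5 (chromosome 11), had intensities of 5573 and 6664 on Ovol2 BT arrays 1 and 2, against 9914 and 9360 on the control arrays. The Ovol2 BT arrays differed from each other more than the control arrays did, and still lay below both of them. Its log2 level was 12.58 ± 0.18 in Ovol2 BT skin and 13.24 ± 0.06 in control skin (SD, n = 2 each). The log2 fold was -0.66 (SE 0.11, 95% interval -0.93 to -0.38, limma adjusted p = 0.432). Without Ovol2 BT replicate 2, the higher of the pair, the fold was -0.79 (limma adjusted p = 0.00342). It was -0.53 without Ovol2 BT replicate 1 (limma adjusted p = 0.0027). As for Krt5, these are the fits in which 107 and 2453 genes passed. Without control replicate 1 the fold of Krt14 was -0.62, and without control replicate 2 it was -0.70, and neither passed (limma adjusted p = 0.9998 and 0.9999).

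Krt15, the further type I keratin of the basal layer (chromosome 11), had intensities of 2040 and 2220 on Ovol2 BT arrays 1 and 2, against 5480 and 5876 on the control arrays. The lower control array still read more than both Ovol2 BT arrays by 1.30 on the log2 scale, the widest gap of the 3 genes. Its log2 level was 11.07 ± 0.09 in Ovol2 BT skin and 12.47 ± 0.07 in control skin (SD, n = 2 each). The log2 fold was -1.41 (SE 0.13, 95% interval -1.73 to -1.09, limma adjusted p = 0.101). Of the 14953 genes tested, 22 had a lower fold. Without Ovol2 BT replicate 2 the fold was -1.47 (limma adjusted p = 0.000718), and without Ovol2 BT replicate 1 it was -1.35 (limma adjusted p = 0.00023), again among 107 and 2453 genes that passed. Krt15 did not pass without control replicate 1 (-1.46, limma adjusted p = 0.291) or without control replicate 2 (-1.36, limma adjusted p = 0.633).

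**Figure D1:**
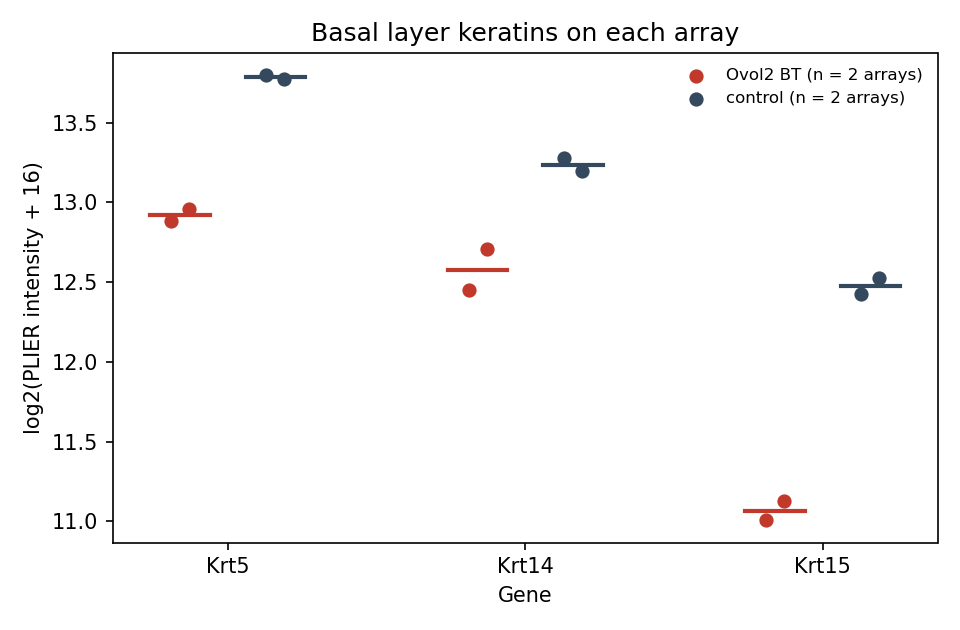
Log2(PLIER intensity + 16) of Krt5, Krt14 and Krt15 on each array; points are arrays, bars are means of 2 arrays, Ovol2 BT in red and control in dark blue. For all 3 genes both Ovol2 BT arrays sit below both control arrays, and Krt15 shows the widest gap, 1.30 on the log2 scale.

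The plot of levels on each array shows how the distance between genotypes compares with that between arrays of one genotype. Replicate 2 minus replicate 1 of Ovol2 BT was 0.08 for Krt5, 0.26 for Krt14 and 0.12 for Krt15. The same difference between the control arrays was -0.02 for Krt5, -0.08 for Krt14 and 0.10 for Krt15. The gap from the highest Ovol2 BT array to the lowest control array was 0.82 for Krt5 and 0.49 for Krt14, so every gap was larger than the difference between arrays of 1 genotype.

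Krt5 is a bright gene. Among the 139 tested genes with a mean log2 level of at least 13, a limit chosen after the values were seen, which do not include Krt14, Krt5 had the lowest fold, and the median fold of these genes was 0.00 (-0.0028). Whether the arrays compress folds at such levels was not tested.

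The promoter of the endogenous Krt5 is shown because Krt5 is lower in embryos whose transactivator itself uses a keratin 5 promoter, and no sequence of the transgene was used here. RefSeq's window on GRCm38.p6, chr15:101712856-101713155 on the minus strand, runs from 250 bases before to 50 bases after the annotated start of Krt5. It is printed 5′ to 3′ in the sense of the gene, and the capitals mark the only matches to 2 motifs chosen after the sequence was read.
Krt5 promoter: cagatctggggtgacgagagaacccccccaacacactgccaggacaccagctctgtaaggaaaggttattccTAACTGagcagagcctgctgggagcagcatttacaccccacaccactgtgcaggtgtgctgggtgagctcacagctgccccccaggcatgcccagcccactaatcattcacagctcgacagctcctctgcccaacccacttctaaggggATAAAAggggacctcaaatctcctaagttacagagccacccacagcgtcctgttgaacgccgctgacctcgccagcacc
ATAAAA, an AT-rich run whose first base lies at -29 from the start, was found in 18.5% of 32851 promoter windows of this length when both strands were searched. The other run is a match on the opposite strand to CNGTTA, a relaxed form of the OVOL recognition core, which 23.3% of windows held. The core CCGTTA itself (2.76% of windows), the TATA box TATAAA (13.6%), the AP-2 element GCCNNNGGC (16.6%) and the GC box GGGCGG (35.7%) had 0 matches in this window on either strand. These matches describe letters only and do not show a bound site. The RefSeq table's entry for Krt14 surrounds a start 1480 bases inside the gene and is not printed. Krt15 was not matched in that table.

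On these arrays Krt15 was lower by more than Krt5 and Krt14 were. Within an array, the log2 level of Krt15 minus that of Krt14 was -1.44 and -1.58 on Ovol2 BT arrays 1 and 2, against -0.85 and -0.67 on the control arrays. Such a value carries the probes' own brightness, so only its shift between genotypes is read, and this shift was -0.75 (-0.68 without Ovol2 BT replicate 2). Krt15 minus Krt5 was -1.87 and -1.83 on the Ovol2 BT arrays and -1.37 and -1.25 on the control arrays, a shift of -0.54 (-0.56 without Ovol2 BT replicate 2). Krt15 was thus lower relative to Krt14 and to Krt5 on both Ovol2 BT arrays than on either control array. Krt5 minus Krt14 was 0.43 and 0.25 on the Ovol2 BT arrays and 0.52 and 0.58 on the control arrays, a shift of -0.21 that became -0.12 without Ovol2 BT replicate 2. That shift is the smallest of the 3 pairs, and the 95% interval of the fold of Krt14 (-0.93 to -0.38) held the fold of Krt5 (-0.87). These within-array differences cancel anything that scales a whole array, and they were not tested because 2 arrays a group cannot reach p = 0.05 in an exact test.

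**Figure D2:**
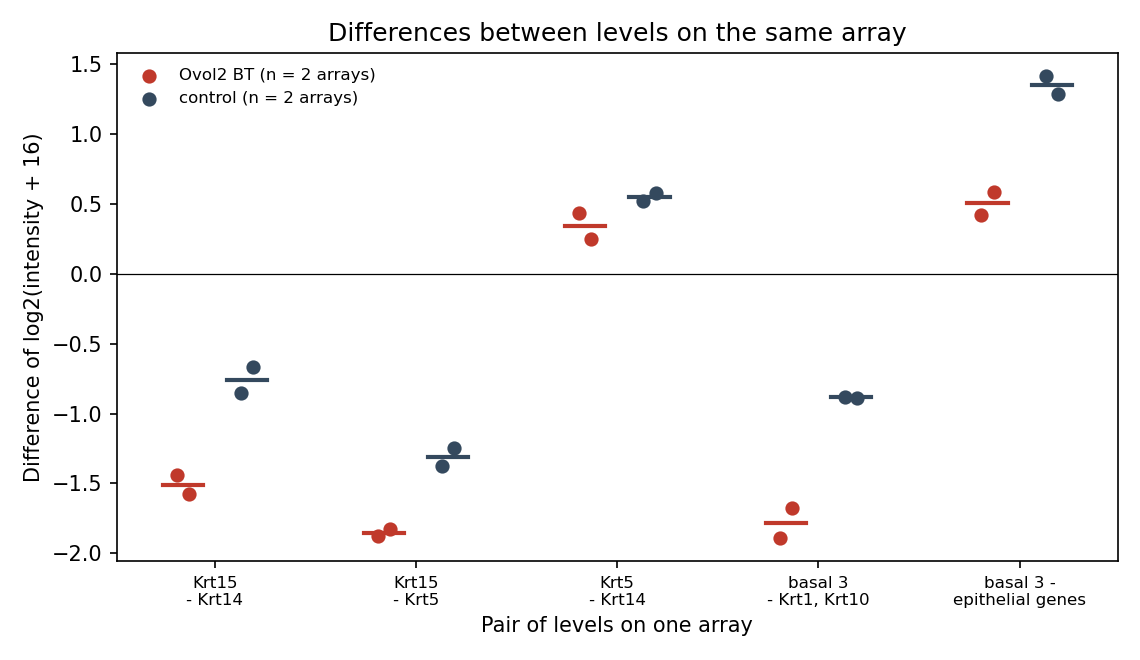
Differences of log2(intensity + 16) between genes on the same array, for 3 pairs of basal keratins and for the mean of the 3 basal keratins minus Krt1 and Krt10 or minus the 13 general epithelial genes. Points are arrays and bars are means of 2 arrays, Ovol2 BT in red and control in dark blue; in every column both Ovol2 BT arrays sit below both control arrays.

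The keratins of the next layer had folds near 0. Krt1 averaged 14.02 in Ovol2 BT skin and 14.10 in control skin, a log2 fold of -0.08 (SE 0.04, 95% interval -0.19 to 0.03, limma adjusted p = 0.906). Krt10 averaged 13.91 in Ovol2 BT skin and 14.00 in control skin, a log2 fold of -0.08 (SE 0.05, 95% interval -0.20 to 0.04, limma adjusted p = 0.906). For both genes the control arrays lay slightly above the Ovol2 BT arrays. The mean of the 3 basal keratins minus the mean of Krt1 and Krt10 was -1.89 and -1.67 on the Ovol2 BT arrays, against -0.88 and -0.89 on the control arrays. Basal keratins were thus lower relative to spinous keratins in both Ovol2 BT samples, with a shift of -0.90 on the log2 scale (-1.01 without Ovol2 BT replicate 2). Krt1 and Krt10 were brighter than the basal keratins. Whether the arrays compress their folds, which a within-array difference would not cancel, was not tested. The mean of the 3 basal keratins minus that of 13 general epithelial genes, such as Cdh1 and desmosome genes that basal and suprabasal cells share, was 0.42 and 0.59 on the Ovol2 BT arrays, against 1.41 and 1.29 on the control arrays. This shift was -0.85 (-0.93 without Ovol2 BT replicate 2).

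Among all keratins measured, the basal ones were at the low end of the folds. Of the other type I keratins 17 of 25 were tested, and 13 had positive and 4 negative folds, with a median of 0.31. Of the other type II keratins 18 of 23 were tested, and 14 had positive and 4 negative folds, with a median of 0.27. At an unadjusted limma p under 0.05, 7 other type I and 7 other type II keratins were higher and 0 of either type were lower. The share of all genes higher at that p was 2.49%, and the median fold of all genes tested was 0.03. The lowest fold among the other keratins was -0.32 in type I and -0.27 in type II, against -0.66 for Krt14.

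The higher keratins included those of stress and of simple epithelia. Krt6b (log2 fold 4.30, SE 0.25) and Krt8 (2.34, SE 0.12), keratins of wounded epidermis and of simple epithelia and periderm, rose with a limma adjusted p of 0.0253 each. Neither passed with all probe sets tested (limma adjusted p = 0.0923 for each) or with a variance without trend (limma adjusted p = 0.059 for Krt6b and 0.0953 for Krt8). They are type II chains, as Krt5 is. All 4 stress keratins and 5 of 5 tested simple epithelial keratins were higher at an unadjusted p under 0.05, with median folds of 2.57 and 0.85. Of the 7 suprabasal keratins 5 were tested, and 0 were lower at an unadjusted limma p under 0.05. Higher at that p was 1, Krt80 (0.51, SE 0.12, limma adjusted p = 0.709). Of all genes 1.74% were lower and 2.49% higher at that p. The groups did not overlap for 3 lower and 1 higher suprabasal keratins, against 14.1% and 20.1% of all genes. Krt80 passed without Ovol2 BT replicate 1 (0.54, limma adjusted p = 0.0142), where 2453 genes passed, and did not pass when any other array was left out.

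**Figure D3:**
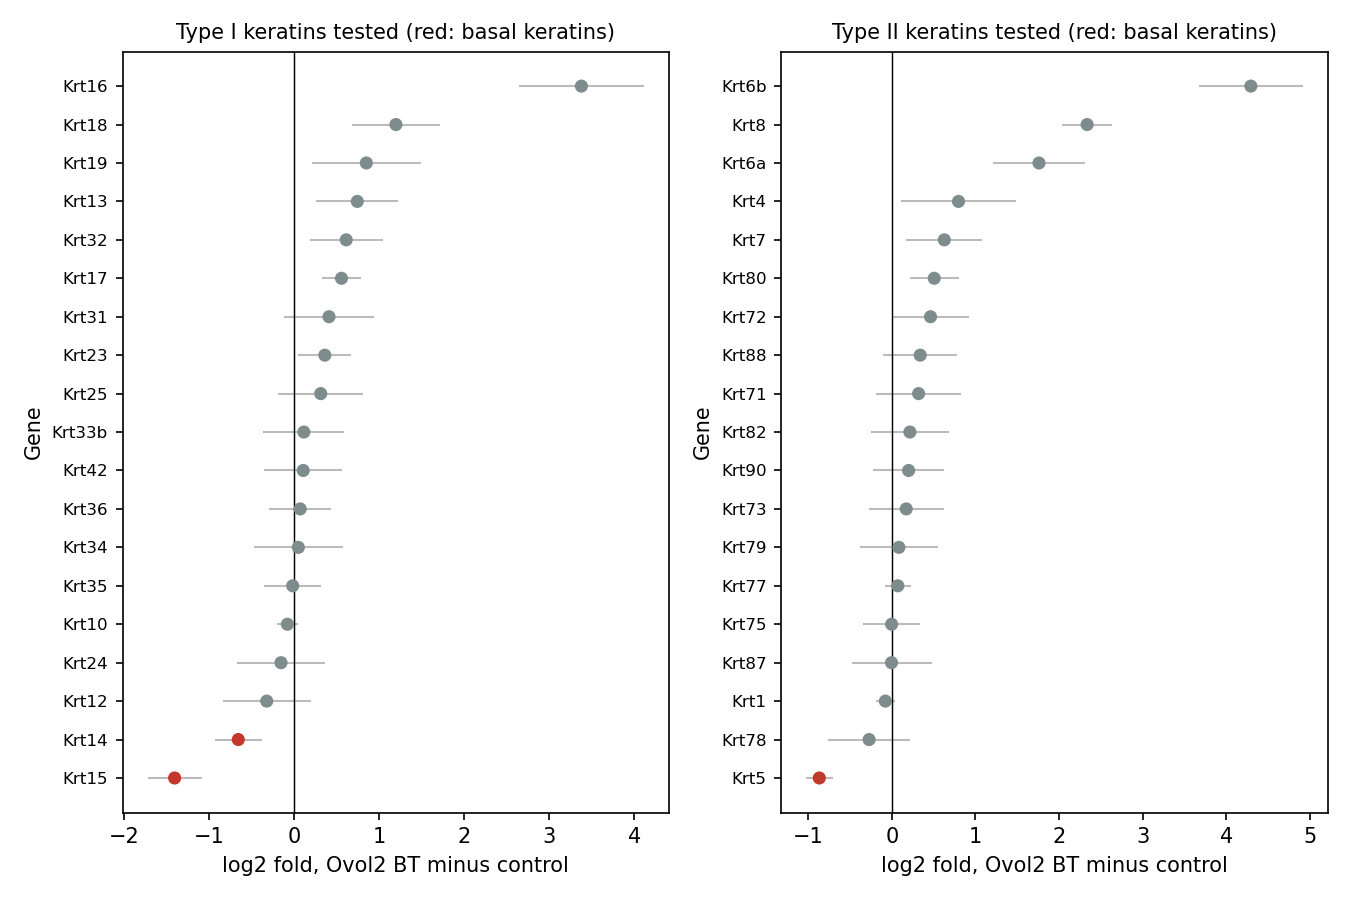
Log2 fold, Ovol2 BT minus control, of every type I and type II keratin tested, with 95% intervals from limma; basal keratins in red. Krt15 at -1.41, Krt5 at -0.87 and Krt14 at -0.66 are at the low ends, and Krt6b at 4.30 and Krt16 at 3.38 at the high ends.

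Other genes listed for the basal layer include those that hold the basal cell to the basement membrane or keep its identity. Of 18 listed, 17 were tested with limma, 6 with positive and 11 with negative folds, and their median was -0.05 against 0.03 over all genes. None passed the adjusted threshold, and at an unadjusted p under 0.05 there were 2 lower and 0 higher, where 1.74% of all genes were lower and 2.49% higher. Non-overlapping groups were found for 4 lower and 2 higher members, where 14.1% of all genes were lower and 20.1% higher without overlap. Trp63, the master regulator of stratified epithelia, read 11.49 and 11.20 on the Ovol2 BT arrays and 11.43 and 11.69 on the control arrays, so the groups overlapped. Its log2 fold was -0.21 (SE 0.18, limma adjusted p = 0.906), and its size depended on which array was left out. Leaving out Ovol2 BT replicate 2 gave -0.07 and leaving out replicate 1 of that genotype gave -0.36, while leaving out control array 2 gave -0.08 and control array 1 gave -0.34. The 2 genes lower at an unadjusted limma p under 0.05 were Sox6 and Perp (-0.17, SE 0.06, limma adjusted p = 0.906). The 4 with the largest folds were Sox6, Dst, Lama3 and Itgb4. Sox6, a transcription factor, read 9.07 and 9.14 in Ovol2 BT skin against 9.94 and 10.12 in control skin, a log2 fold of -0.93 (SE 0.19, limma adjusted p = 0.607). Dst, the plakin that ties keratin filaments to hemidesmosomes, had a fold of -0.53 (SE 0.22, limma adjusted p = 0.906), and Lama3, a laminin chain of the basement membrane, one of -0.51 (SE 0.26), which was -0.19 without control replicate 2 and -0.83 without control replicate 1. Itgb4, the hemidesmosomal integrin, had a fold of 0.45 (SE 0.22, limma adjusted p = 0.906), which was 0.25 without control replicate 1. Without Ovol2 BT replicate 1, a fit in which 2453 genes passed, Sox6 (-0.89, limma adjusted p = 0.00766) and Dst (-0.70, limma adjusted p = 0.0294) passed too. Neither passed without Ovol2 BT replicate 2 (Sox6 -0.97, limma adjusted p = 0.0509; Dst -0.35, limma adjusted p = 0.684). Nor did they without either control array, with a limma adjusted p of 0.9998 or 0.9999.

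Factors known to act on keratin promoters of the basal layer were examined next. Of 19 listed, 18 were tested with limma, 7 with positive and 11 with negative folds, with a median of -0.12. None passed the adjusted threshold, and 1 was lower and 0 were higher at an unadjusted p under 0.05, where 1.74% of all genes were lower and 2.49% higher. The groups did not overlap for 7 lower and 3 higher members, against 14.1% and 20.1% of all genes. The gene lower at that p was Tfap2c, an AP-2 factor, at 8.73 and 9.31 on the Ovol2 BT arrays against 9.95 and 10.00 on the control arrays. The groups did not overlap, and its log2 fold was -0.96 (SE 0.25, limma adjusted p = 0.798). It was -0.66 without Ovol2 BT replicate 1 (limma adjusted p = 0.0252) and -1.25 without Ovol2 BT replicate 2 (limma adjusted p = 0.0115), fits in which 2453 and 107 genes passed. It did not pass without either control array (limma adjusted p = 0.9998 and 0.9999). The glucocorticoid receptor gene Nr3c1 (-0.64, SE 0.40) and the thyroid hormone receptor gene Thrb (-0.56, SE 0.28) were lower mainly on Ovol2 BT replicate 2. Neither passed with all arrays (limma adjusted p = 0.906 for each). Without that array their folds were -0.05 and -0.16, and without Ovol2 BT replicate 1 they were -1.23 (limma adjusted p = 0.0011) and -0.95 (limma adjusted p = 0.00854). Cebpa, a C/EBP factor, had a fold of -0.47 (SE 0.23, limma adjusted p = 0.906), which was -0.18 without Ovol2 BT replicate 1 and -0.76 without Ovol2 BT replicate 2.

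**Figure D4:**
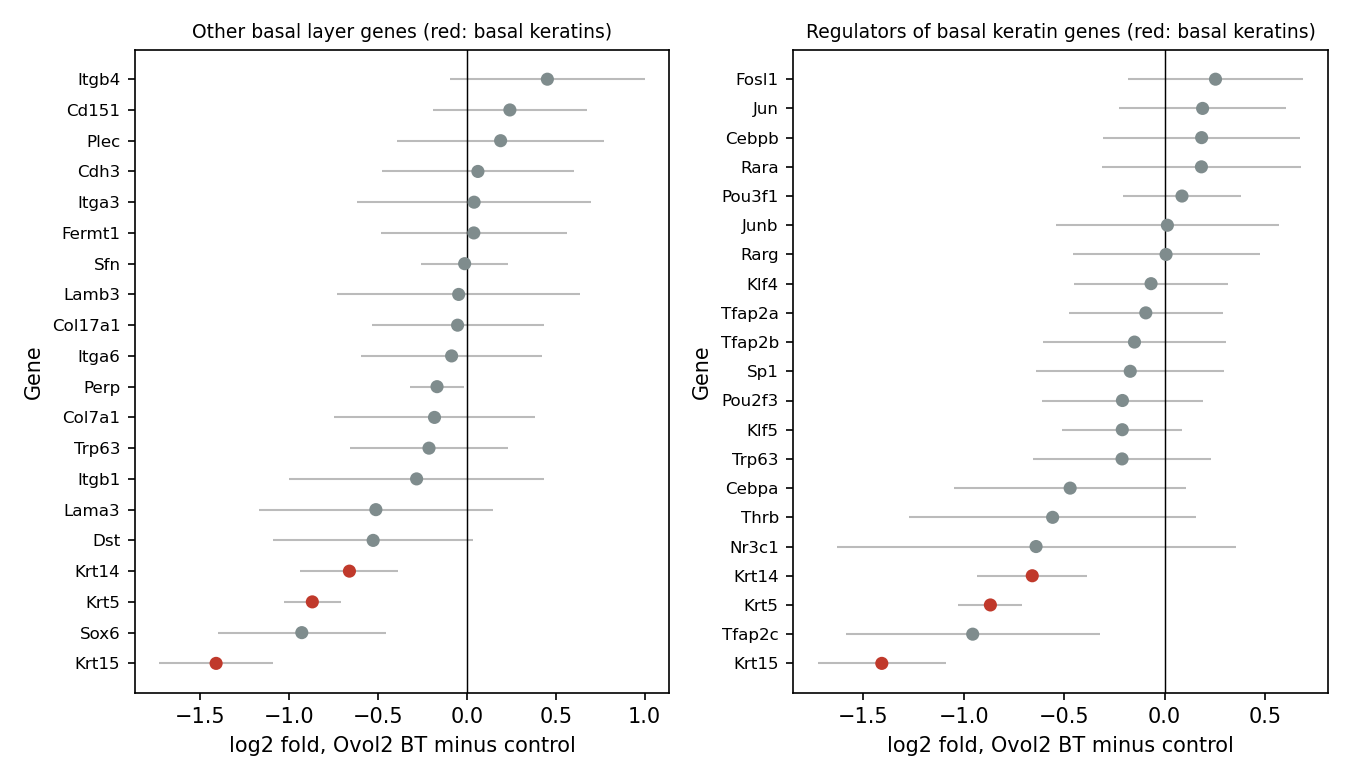
Log2 fold, Ovol2 BT minus control, with 95% intervals from limma, of the 17 other basal layer genes tested and of the 18 tested regulators of basal keratin genes, each set beside the 3 basal keratins in red. Sox6 at -0.93 and Tfap2c at -0.96 are the only genes of their lists with folds between those of Krt15 and Krt14.

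All 13 general epithelial genes were tested with limma, 3 with positive and 10 with negative folds, and their median was -0.14. None passed the adjusted threshold, and 2 were lower and 0 higher at an unadjusted p under 0.05, where 1.74% of all genes were lower and 2.49% higher. The groups did not overlap for 7 lower and 0 higher members, against 14.1% and 20.1% of all genes. The 2 lower genes were Grhl2, a grainyhead factor of epithelia (-0.68, SE 0.19, limma adjusted p = 0.853), and the desmosome gene Pkp1 (-0.22, SE 0.08). The fold of Grhl2 was -0.69 without Ovol2 BT replicate 1 and -0.68 without Ovol2 BT replicate 2. It was -0.78 without control replicate 1 and -0.58 without control replicate 2. The partners of keratin filaments, 10 of 10 tested, had a median of -0.10, with 1 lower (Pkp1) and 0 higher at an unadjusted p under 0.05 and 0 past the adjusted threshold.

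Markers of other cell types were read against the same shares of all genes at an unadjusted p under 0.05, 1.74% lower and 2.49% higher. Of 9 periderm markers 7 were tested, and all 7 were higher at an unadjusted p under 0.05. Their summed intensity was 28791 and 29722 on the Ovol2 BT arrays, against 12335 and 10924 on the control arrays. Of the 9, 5 are keratins already counted above with the stress and simple epithelial keratins. Without those 5 the sum was 3192 and 3754 on the Ovol2 BT arrays, against 1011 and 1045 on the control arrays. This sum holds 3 genes, of which 2 were tested. Most of its difference came from Cldn6, at 1989 and 2539 on the Ovol2 BT arrays and 322 and 379 on the control arrays. Of 12 hair placode and follicle markers 11 were tested, with 4 higher and 6 lower at that p and a median fold of -0.53, and their summed intensity was 21693 and 23613 on the Ovol2 BT arrays against 18588 and 19251 on the control arrays. Krt17 is also on the stress and periderm lists. Without it the sums were 13111 and 14260 on the Ovol2 BT arrays and 12200 and 13444 on the control arrays, and the groups overlapped. Sostdc1, the brightest marker left, read 5181 and 5097 on the Ovol2 BT arrays against 2720 and 3551 on the control arrays. Of the 10 markers tested without Krt17, 6 were lower and 3 higher at that p. The sums therefore do not give the direction of most members. Myeloid markers summed to 7265 and 7909 on the Ovol2 BT arrays against 6195 and 5811 on the control arrays, with 1 of 6 tested higher and 0 past the adjusted threshold in limma. Melanocyte markers summed to 5345 and 5622 on the Ovol2 BT arrays against 6011 and 6749 on the control arrays, with 1 of 7 tested lower and 0 past the adjusted threshold. No measured marker on any of these lists was at 0 (an intensity under 0.5) on all 4 arrays. The part of these lists in the levels of the basal keratins was not tested. Summed intensities of dermal fibroblast markers (67795 and 63499 on the Ovol2 BT arrays, 66227 and 63946 on the control arrays) and of endothelial markers (14369 and 15645 on the Ovol2 BT arrays, 13756 and 14705 on the control arrays) overlapped between the groups. So did those of skeletal muscle (26498 and 51862 on the Ovol2 BT arrays, 46737 and 27480 on the control arrays) and erythroid markers (4834 and 16169 on the Ovol2 BT arrays, 4061 and 9088 on the control arrays), which varied most between arrays of one genotype. Summed intensities of adipocyte markers were 5213 and 6295 on the Ovol2 BT arrays and 5245 and 4758 on the control arrays, and those of nerve and Schwann cell markers were 2103 and 2670 on the Ovol2 BT arrays and 2194 and 2099 on the control arrays.

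The genes whose levels followed the basal keratins most closely over the 4 arrays were found by the Euclidean distance between log2 profiles, each centred on its own mean. With 4 arrays this likeness follows from a similar fold and a similar order of the arrays, so the folds of these genes are fixed by the choice and are given as a description. Closest to Krt5 were Il17re (distance 0.06, log2 fold -0.87), the receptor for an interleukin 17 of epithelia, Cstdc6 (0.08, -0.81) and Rgs2 (0.09, -0.80), a regulator of G protein signalling. Closest to Krt14 were Hacd3 (distance 0.03, log2 fold -0.66), an enzyme of very long fatty acid synthesis, the adaptor gene Shc4 (0.06, -0.61) and Hspa12a (0.08, -0.65). Closest to Krt15 were Aqp3 (distance 0.16, log2 fold -1.26), the water and glycerol channel of basal keratinocytes, Adh6b (0.20, -1.24) and Cracdl (0.21, -1.54). The value of Adh6b is that of its brightest probe set, and with the mean of all its probe sets the fold was -0.65. Krt15 thus had no neighbour as close as those of Krt5 and Krt14. Aqp3 read 9.42 and 9.60 on the Ovol2 BT arrays against 10.69 and 10.86 on the control arrays.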

How the data were processed

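The authors deposited 1 linear intensity for each probe set on each array, computed with Affymetrix Expression Console 1.1.1 and PLIER 2.0, per the submitters' processing notes. The normalisation between arrays is not stated in those notes, nor is a genome build. Each array held RNA of 2 mice, per the labels' protocols. Of 35557 probe sets 21789 had 1 gene symbol, 1621 several and 12147 no listed gene; the last 2 kinds were not used by name. Symbols were updated by Entrez number to RefSeq of GRCm38.p6, which matched 21698. The brightest probe set by mean level stood for a gene. Levels are log2(intensity + 16), with no further normalisation. Genes under the 25th percentile of mean level (7.32) were left out, and 14953 of 19938 were tested with limma 3.58.1 in R 4.3.3 (lmFit, eBayes with an intensity trend, two-sided, 2 residual and 3.45 prior degrees of freedom), with Benjamini-Hochberg adjustment over all genes tested. The number of arrays limits the precision. Median intensities were 304 and 266 on Ovol2 BT arrays 1 and 2, and 282 and 299.5 on control arrays 1 and 2. The steps were tested on simulated data.

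The members, the 18 gene lists, the tests and the rule for named genes were chosen with earlier results of these data known. The rule names the 3 members, Ovol2, Krt1, Krt10 and Trp63, up to 4 members of a list with the largest folds, and the 3 genes with the nearest profile to each member. Genes named for an unadjusted p under 0.05 are among these, except Perp. Sostdc1 was named for its part in a summed intensity. Lists are described by counts and medians, without a set test. Alternatives changed the normalisation (quantile, or centring on the median), the offset (1 or 64), the filter (none, or the 50th percentile), the probe sets (mean per gene, or all of them apart), the variance (no trend), the design (replicate number as a block) and the arrays (each left out in turn). The sums of marker lists without their keratins were added after the values were seen.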

Additional observations from a re-analysis of the deposited data

How the results depend on the processing

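Krt5, Krt14 and Krt15 were lower in Ovol2 BT skin under every alternative run, and no fold of another gene named by the rule changed direction. Perp, Sostdc1 and Cldn6 were not followed through the alternatives. Without 1 array in turn the folds lay between -0.91 and -0.83 for Krt5, between -0.79 and -0.53 for Krt14 and between -1.47 and -1.35 for Krt15. Krt5 passed the threshold with quantile normalisation (-0.86, limma adjusted p = 0.0474) and when dim genes were filtered at the 50th percentile (-0.87, limma adjusted p = 0.0291), where fewer genes were tested. Deviations of same-numbered arrays from their group means had a correlation over genes of -0.17, which gave no sign of pairing by replicate number. With 2 arrays a group this value cannot show whether same-numbered arrays were handled together. With the replicate block Krt5 passed (-0.87, limma adjusted p = 0.0465) and 9 genes did in all. With crossed numbers as the block, chosen after seeing the data, 5 genes passed, Krt5 among them (-0.87, limma adjusted p = 0.0297). The count of genes past the threshold was 4, but 10 with median centring, 0 with all probe sets (871 at an unadjusted p under 0.05) and 0 with a variance without trend (601 at an unadjusted p under 0.05). Without 1 array in turn it lay between 4 and 2453: leaving out Ovol2 BT replicate 1 gave 2453, and replicate 2 of that group 107, while leaving out control replicate 1 gave 7 and the other control array 4. The cause was not tested. Median centring moved the median fold of all genes to 0.06, by less than 0.1. The within-array differences kept their direction in all alternatives run for them. Signal over background is not given per probe set, so which dim levels were measured is unknown.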
